A study of Mus musculus with 107 samples.

Results

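The 41 genes described here encode parts of the neuronal cytoskeleton, the synaptic vesicle and its release machinery, transmitter enzymes and transporters, and calcium-binding proteins and peptides that mark neurons. They were chosen by name and by known role, with earlier results of these data known, and all 41 were found among the 27179 genes counted. Of these, 4 (*Dcx*, *Tubb3*, *Stmn2* and *Elavl3*) were taken as early neuron genes, and 4 (*Nefh*, *Pvalb*, *Chat* and *Slc6a5*) as mature genes of host-type neurons. RNA bound to HA-tagged ribosomes (RiboTag) was sequenced in libraries of 23 groups, all from C57BL/6 mice or cells labelled RiboTag +. The tag is an HA epitope on the ribosomal protein Rpl22, so that ribosomes of tagged cells and their RNA can be pulled down. Levels are counts of a gene per 1000000 gene counts of its library (CPM), and values across genes are also given per kilobase of exon (FPKM).

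Mouse embryonic stem cells (ESC, n = 4) came from crosses of RiboTag mice with mice carrying a SOX2-cre allele, in which the tag is switched on from the early embryo. From them neural progenitor cells (NPC) were derived and kept in EGF and FGF at 100 ng/mL. The first derivation was sampled at passage 5 (NPC P5, n = 4), passage 15 (NPC P15, n = 4) and passage 30 (NPC P30, n = 4). Further derivations were sampled at passage 15 (NPC P15 D2, n = 6, and NPC P15 D3, n = 4). Differentiation ran for 4 days in EGF and FGF lowered to 1 ng/mL (SPONT), alone or with CNTF or IGF-1 at 100 ng/mL, with fetal bovine serum (FBS) at 1, 5, 10 or 20%, or with CNTF and 5% FBS (n = 4 each). NPC passed through a pipette in diblock copolypeptide hydrogel (NPC DCH), after 4 hours in it (NPC DCH 4 h) or in media (NPC media) made up the cells before grafting (n = 5 each). Grafted NPC were recovered at 14 days from uninjured spinal cord (Graft uninjured), from a crush injury at vertebral level T10 (Graft SCI 14 d) or from a double crush (Graft dSCI), and at 5 days from the T10 crush (Graft SCI 5 d), with n = 5 each. Grafting into injured cord was done 2 days after the crush, and the labels do not say whether the 14 and 5 days of the grafts run from the crush or from grafting. Host cells were astrocytes of mice carrying the 73.12 Gfap-Cre transgene and the RiboTag allele, from healthy cord (Host healthy, n = 9) or 14 days after the crush (Host SCI, n = 5). The Cre drives the tag in cells that express or have expressed Gfap, and grafted NPC come from 1 ESC line. The labels do not say which libraries of a group come from separate cultures, and p-values measure the spread between these libraries.

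Neurons extend axons along microtubules built from tubulins such as Tubb3, stabilised by proteins such as Dcx and Map2, and fill large axons with neurofilaments. Synaptic vesicles are filled by transporters specific for glutamate, GABA and glycine or acetylcholine, and fuse with the membrane through Vamp, Snap25 and syntaxin under the control of synaptotagmin and complexin. Young neurons make Dcx, Tubb3, Stmn2 and the RNA-binding protein Elavl3 early, whereas heavy neurofilament and the transmitter genes of motor neurons and inhibitory interneurons come later.

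The gene counts of the 96 paired libraries summed to 30473157–147764968 and those of the 11 single-read libraries, which are NPC P15 D2 and Graft SCI 5 d, to 12286240–18085106. A gene was taken as at the floor in a library that held no more than 3 of its counts, which lies at 0.0203 to 0.244 CPM. Astrocyte markers summed to 44861–52358 CPM in Host healthy and 28699–46833 CPM in Host SCI. Y-linked genes summed to at most 0.634 CPM in every group but Host healthy, where they reached 102 CPM. In 7 of its 9 libraries they were high, and each result against Host healthy was therefore also computed on the other 2 alone. Graft uninjured replicate 5 held the highest level of its group for 36 of the 41 genes and Graft SCI 5 d replicate 4 for 32. Where a count or mean moved by over 1.5 times without either library, the value without it is given.

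Over the 23 groups, 28 of the 41 genes had their highest mean level in Graft uninjured, and 25 did without its replicate 5, a setting chosen after seeing the data. The share of all genes with their highest mean in that group was not computed. In all 16 culture groups of NPC and their derivatives, 10 genes had group means below 1 CPM. These were the heavy neurofilament gene *Nefh*, the vesicular glutamate and GABA transporters *Slc17a6* and *Slc32a1*, the GABA synthetic enzyme *Gad2*, the glycine transporter *Slc6a5*, the cholinergic genes *Chat* and *Slc5a7*, the catecholamine enzyme *Th*, and the peptides *Sst* and *Tac1*. A further 11 genes were at 1 CPM or more in all 16 of these groups. They were the cytoskeletal and growth genes *Tubb3*, *Map2* and *Gap43*, the vesicle and release genes *Syn1*, *Syn2*, *Syp*, *Vamp2* and *Stx1a*, the ubiquitin hydrolase *Uchl1*, the surface protein *Thy1* and the secreted protein *Reln*. Of the 41 genes, 38 were at 1 CPM or more in all 4 graft groups, 37 in both host groups and 26 in ESC.

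**Figure D1:**
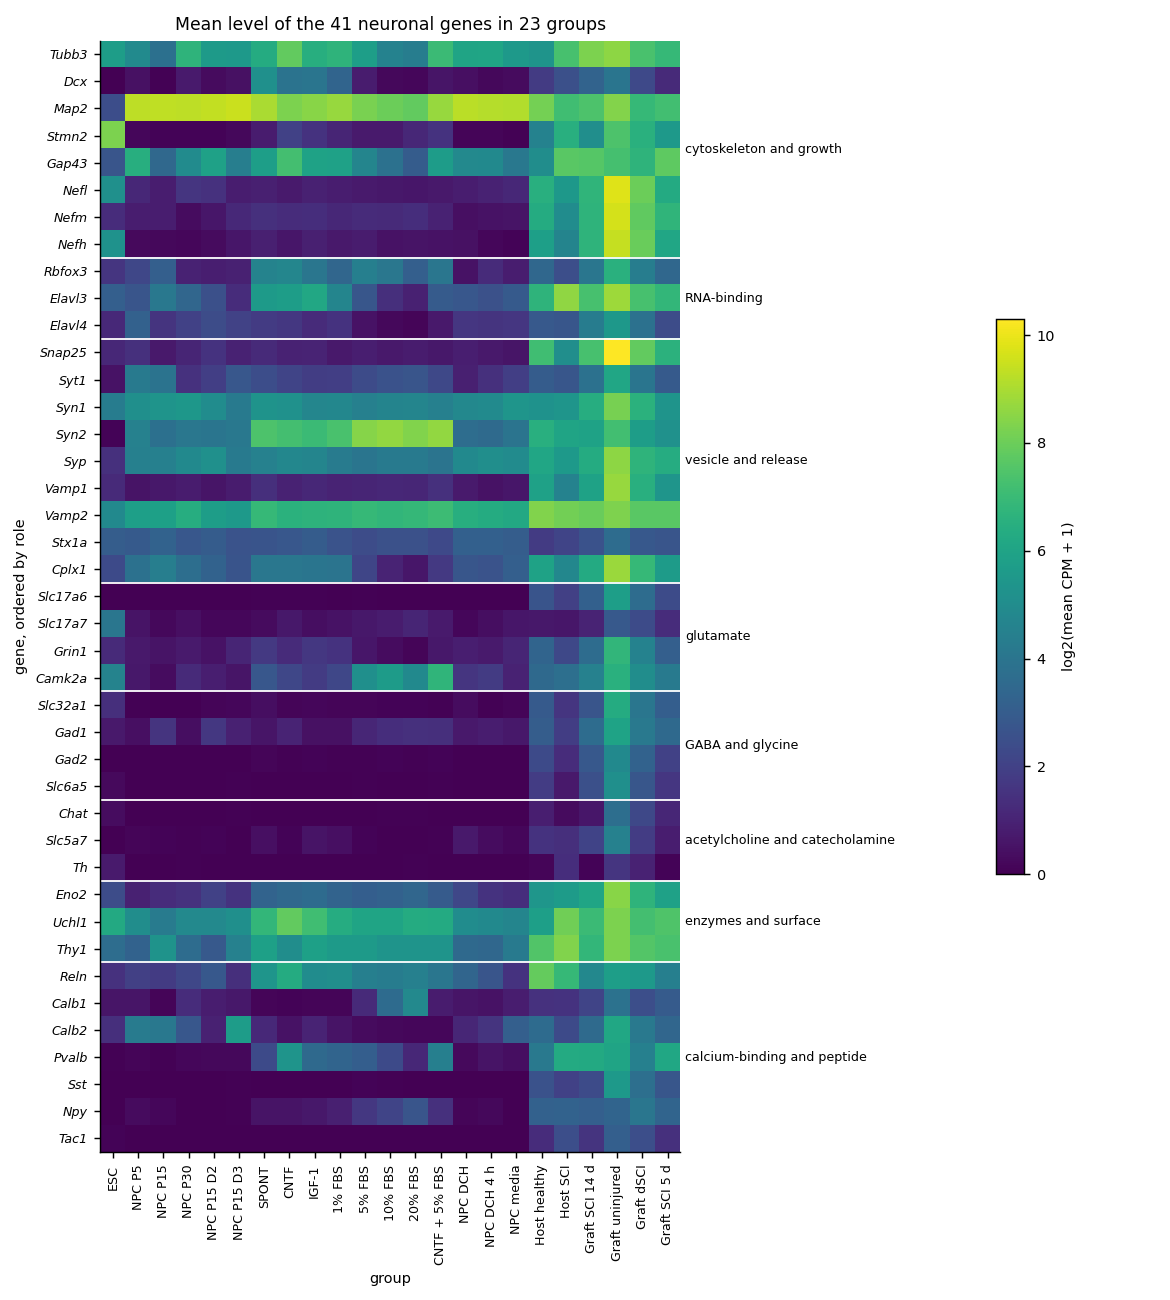
Mean level of each of the 41 genes (rows, by role) in the 23 groups (columns), as log2(CPM + 1). The column of Graft uninjured holds the highest mean of 28 genes, and *Slc17a6*, *Gad2*, *Slc6a5* and *Chat* are close to 0 in the columns of NPC and their cultures.

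Among the 13 genes with their highest mean elsewhere, *Stmn2*, a regulator of microtubule dynamics in growing axons, and *Slc17a7*, a vesicular glutamate transporter, were highest in ESC, with 306 ± 9.28 CPM and 15.4 ± 1.34 CPM (SD, n = 4). Culture groups held the maximum of 5 genes. These were *Map2* in NPC P15 D3 (711 ± 65.5 CPM), *Dcx* in SPONT (35.1 ± 9.34 CPM), *Syn2* in 10% FBS (399 ± 23.9 CPM), the calcium buffer *Calb1* in 20% FBS (28.0 ± 6.63 CPM) and the kinase gene *Camk2a* in CNTF + 5% FBS (105 ± 3.86 CPM). *Gap43*, a growth cone protein, was highest in Graft SCI 5 d (214 ± 42.7 CPM) and *Npy*, a neuropeptide, in Graft dSCI (15.6 ± 12.1 CPM). Host groups held the maximum of *Vamp2* and *Reln* (Host healthy) and of *Thy1* and *Pvalb* (Host SCI). With TMM scaling of the library sizes, 26 in place of 28 genes were highest in Graft uninjured.

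The genes assigned to a mature stage did not form one pattern. *Nefh*, *Chat* and *Slc6a5* summed to 0.508, 1.80, 0.752 and 0.484 CPM in SPONT and to 0.534, 0.507, 0.434 and 0.686 CPM in CNTF. *Pvalb*, a calcium buffer of fast-spiking neurons, was at 3.63, 7.51, 2.58 and 2.13 CPM in SPONT and at 38.6, 37.1, 43.7 and 36.7 CPM in CNTF. In Host SCI the 3 genes summed to 6.82, 10.9, 23.6, 55.8 and 28.1 CPM against 50.0 to 66.0 CPM with a median of 59.7 in Host healthy. *Pvalb* went the other way, with 63.3, 77.6, 64.3, 48.0 and 136 CPM in Host SCI against 13.3 to 20.3 CPM with a median of 19.0, and the ranges did not overlap. Most of the sum in SPONT and in both host groups was *Nefh*, so it does not show the 3 genes moving together. *Pvalb* stands apart from this sum in these data and is given separately below.

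**Figure D2:**
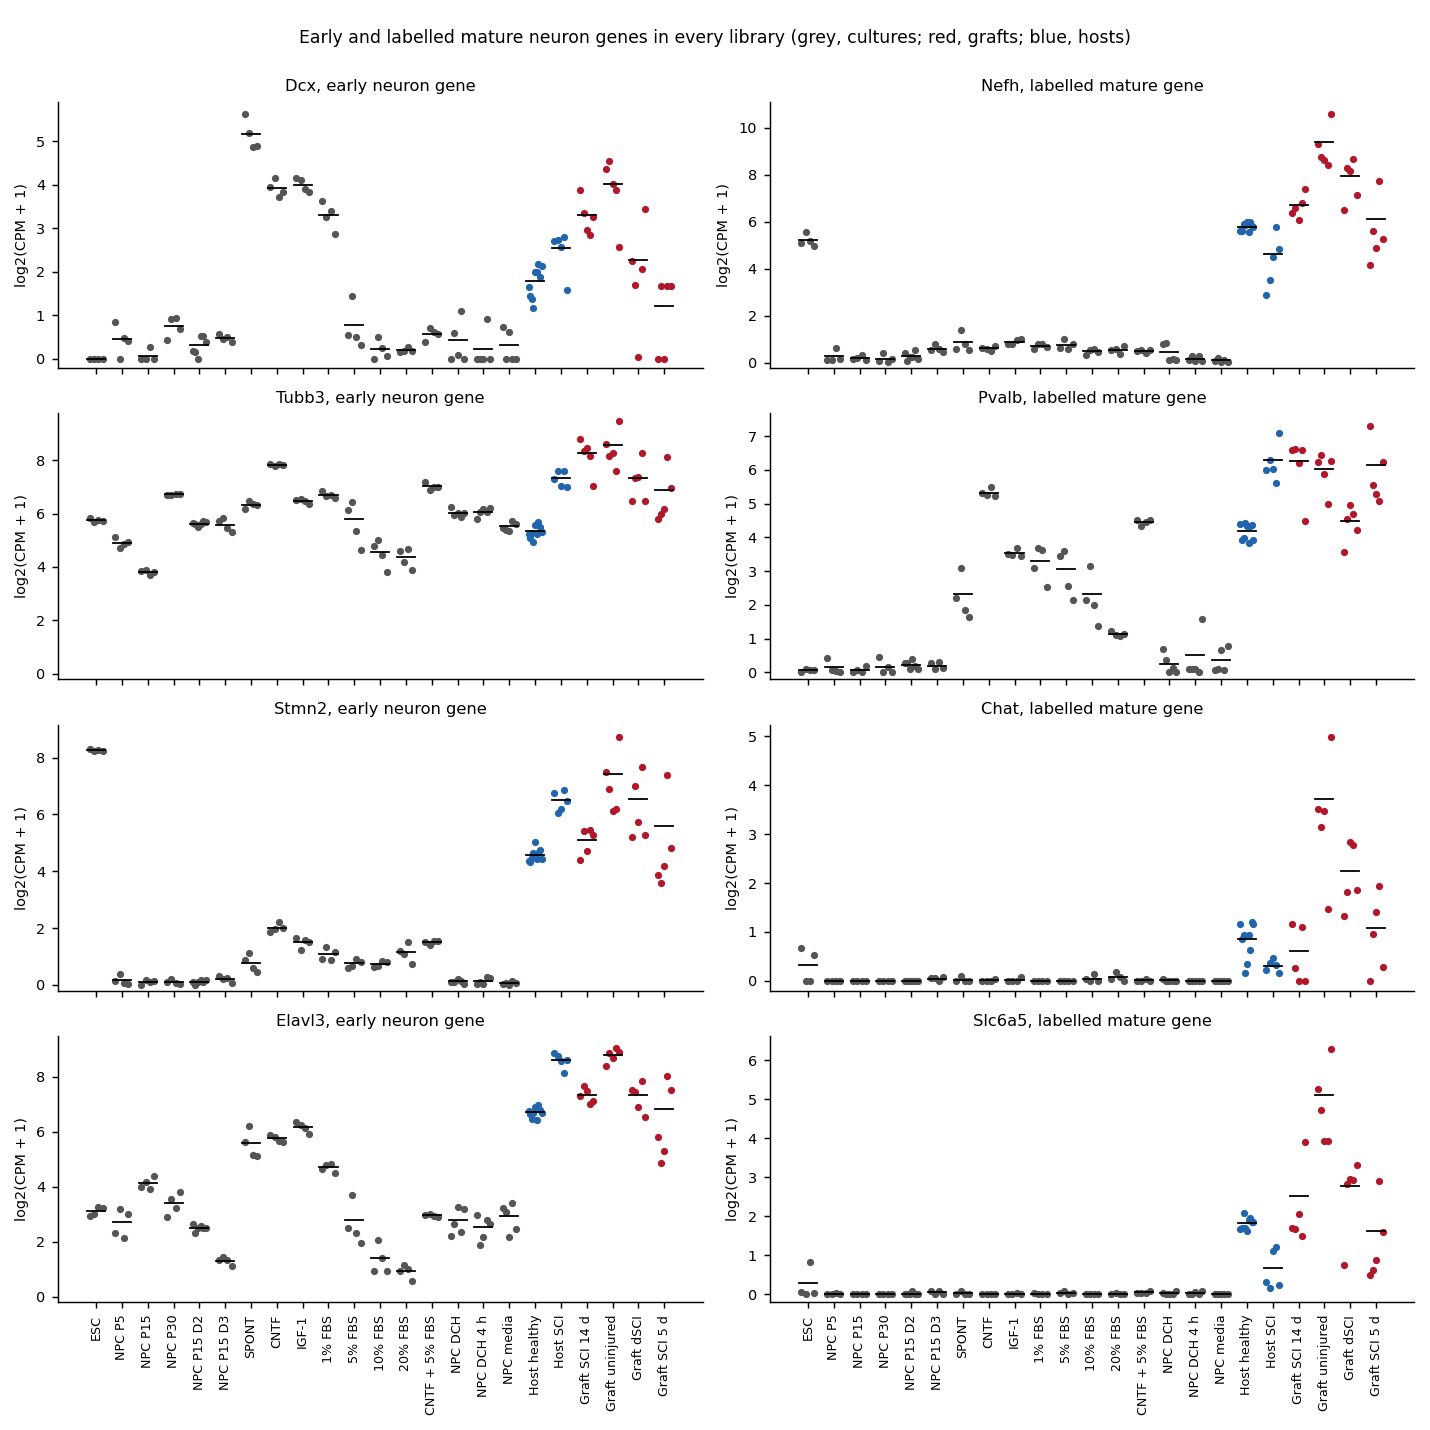
Level in each library (points) and group mean (line) of the 4 early genes (left) and the 4 mature genes (right), as log2(CPM + 1), in all 23 groups, with cultures in grey, grafts in red and hosts in blue. *Nefh*, *Chat* and *Slc6a5* lie near 0 in NPC and SPONT and are highest in Graft uninjured, whereas *Pvalb* is already at 36.7–43.7 CPM in CNTF.

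Promoter sequence is shown for *Tubb3* and *Pvalb*, which the stage rule puts on opposite sides and which changed in the same direction with CNTF, with 20% FBS and in Host SCI. The pair was chosen after these values and the motif counts were seen. Each sequence is the 150 bases before the annotated start, from RefSeq on GRCm38.p6 (mm10), 5′ to 3′ on the strand of the gene. Capitals mark the letters TCAGCACC, part of the site of the repressor REST, or their reverse complement.
Tubb3: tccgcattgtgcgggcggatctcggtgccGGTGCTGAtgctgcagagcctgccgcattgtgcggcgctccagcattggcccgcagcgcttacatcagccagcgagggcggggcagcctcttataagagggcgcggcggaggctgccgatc
Pvalb: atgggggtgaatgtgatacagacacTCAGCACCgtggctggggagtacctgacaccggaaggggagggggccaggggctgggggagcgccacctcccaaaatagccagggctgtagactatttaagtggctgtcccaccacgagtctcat
The first lies at chr8:123411403-123411552 (+) and the other at chr15:78206401-78206550 (−), and in both genes the window stands directly upstream of the first exon of a protein-coding transcript, for *Pvalb* of 1 of its 2 annotated starts. The capitals begin 121 bases before the start of *Tubb3* on the strand opposite to the gene, and 125 bases before that of *Pvalb* on its own strand. RefSeq windows of the same kind were found for 30 of the 41 genes, 39 windows in all, of which 3 (of *Pvalb*, *Syn1* and *Tubb3*) held these letters on either strand, against 1.32% of 32851 windows over all genes. The cyclic AMP response element TGACGTCA was found in 3 windows (of *Sst*, *Syn1* and *Th*; 1.55% of all) and TATAAA, on either strand, in 6 (12.4% of all). The windows describe the annotated starts, and which start was used in these cells was not measured.

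On mm10 the early genes lie at chrX:143855842-143933396 (*Dcx*), chr8:123411553-123422015 (*Tubb3*), chr3:8509527-8561604 (*Stmn2*) and chr9:22015005-22052146 (*Elavl3*). The mature genes lie at chr11:4938754-4948064 (*Nefh*), chr15:78191112-78206400 (*Pvalb*), chr14:32408203-32465909 (*Chat*) and chr7:49906984-49963864 (*Slc6a5*). All 8 are protein-coding and were counted over their exons.

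Undifferentiated NPC already carried a part of the neuronal set, and its levels were not the same at all passages and derivations. *Map2* was even, from 591 to 804 CPM over the 22 libraries of these 5 groups. *Tubb3* was not, with 33.8, 25.2, 28.1 and 29.4 CPM in NPC P5, 13.4, 13.9, 12.1 and 12.9 CPM in NPC P15 and 102, 104, 106 and 104 CPM in NPC P30. The 3 passages did not overlap, and passage 15 was the lowest. *Gap43* was at 85.8–93.5 CPM in NPC P5, 6.39–12.3 CPM in NPC P15 and 28.1–32.5 CPM in NPC P30. *Syt1* was at 13.9–23.1 CPM and 13.0–15.3 CPM in the lower passages and at 0.788–2.34 CPM in NPC P30. Between derivations at passage 15, *Elavl3* was at 13.9–19.7 CPM, 3.98–5.26 CPM and 1.18–1.74 CPM, and *Calb2* at 13.3–20.0 CPM, 0.576–1.18 CPM and 46.5–56.4 CPM, in the order NPC P15, P15 D2 and P15 D3. These levels are given without a test. The cells before grafting had *Tubb3* at 39.8–52.2 CPM in NPC media, 58.2–75.3 CPM in NPC DCH and 54.4–72.8 CPM in NPC DCH 4 h, above NPC P15 in every library, and *Nefh*, *Chat* and *Slc6a5* together at no more than 0.823 CPM in any of the 15.

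The first comparison asks how these genes differed between stem cells and progenitors. In NPC P15, 11 of the 31 genes tested were higher and 9 lower than in ESC, where 67.2% of all genes tested passed, 32.2% higher and 34.9% lower. The median log2 fold change (log2FC) of the 31 was 0.13, against −0.10 over all genes. Groups were compared with edgeR's quasi-likelihood test with Benjamini-Hochberg adjustment over all genes tested, and a gene is said to rise or fall where its adjusted p was below 0.01. *Map2*, which stabilises dendritic microtubules, was at 3.75, 5.60, 5.06 and 3.14 CPM in ESC and 659.8, 635, 649 and 643 CPM in NPC P15 (log2FC 7.13, SE 0.16, edgeR adjusted p = 1.1e-11). *Syn2*, a synapsin that tethers vesicles, went from 0.127, 0.0626, 0.0699 and 0.0670 CPM to 11.0, 17.5, 13.0 and 10.8 CPM (log2FC 7.20, SE 0.37, edgeR adjusted p = 1.0e-08). The groups were far apart for both genes. Of 9 vesicle and release genes 6 rose and none fell, among them *Syt1* (4.97), *Syp* (3.57) and *Cplx1* (2.24), with log2FC in parentheses.

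ESC themselves held several neuronal transcripts. *Stmn2* was at 317, 300.5, 309.7 and 297 CPM in ESC and 0, 0.116, 0.0620 and 0.0899 CPM in NPC P15, and *Nefh* at 33.6, 46.6, 35.9 and 30.7 CPM and 0.125, 0.155, 0.248 and 0.0899 CPM. Both fell, as did *Nefl*, the light neurofilament gene (−5.65), *Tubb3* (−2.10), *Uchl1* (−2.12), *Slc17a7* (−6.67) and *Camk2a* (−6.53). Of the 4 early genes, *Elavl3* alone rose (log2FC 1.00, SE 0.18, edgeR adjusted p = 3.1e-04), while *Dcx* had no counts in ESC and at most 14 in any NPC P15 library and was not tested.

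Lowering EGF and FGF for 4 days addresses what progenitors become without added factors. In SPONT 15 of 32 genes tested were higher than in NPC P15 and 3 lower, where 57.2% of all genes passed, 29.8% higher and 27.4% lower. The median log2FC was 1.65, against 0.08 over all genes. All 4 early genes rose. At least *Dcx* and *Stmn2* among them, and *Pvalb* below, held too few counts in NPC P15 to pass the count filter there. They could be called only higher, so part of the count was fixed by the filter. *Dcx*, a microtubule protein of migrating young neurons, was at 48.2, 35.4, 28.3 and 28.4 CPM against 0, 0, 0.217 and 0 CPM, and all SPONT libraries were above all of NPC P15. *Tubb3* was at 71.8, 88.2, 81.1 and 78.0 CPM against 13.4, 13.9, 12.1 and 12.9 CPM (log2FC 2.74, SE 0.10, edgeR adjusted p = 3.0e-09). *Elavl3* was at 48.4, 73.4, 34.8 and 33.4 CPM against 14.9, 16.9, 13.9 and 19.7 CPM (log2FC 1.68, SE 0.25, edgeR adjusted p = 1.2e-04), with replicate 2 the highest of SPONT. *Stmn2* rose only to 0.387–1.19 CPM, a call lost in 5 of 14 other settings (adjusted p up to 0.021). Such settings change the tool, scaling, filter, reference or block, or leave out 1 library. The size of these rises depended on the reference. Against NPC P15 D3, 20 genes were higher and 2 lower, and the log2FC was 0.83 for *Tubb3* and 5.08 for *Elavl3*. NPC P30 held more *Tubb3*, 102–106 CPM, than any SPONT library.

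Other genes that rose in SPONT were *Camk2a* (4.59), *Reln* (4.20), *Syn2* (3.85), *Uchl1* (2.74), *Eno2* (2.68), *Gap43* (2.54), *Rbfox3* (1.75), *Vamp2* (1.17) and *Thy1* (0.70), from the kinase and secreted protein genes to the neuronal enolase *Eno2* and the splicing factor *Rbfox3* (NeuN). Of the mature genes, *Nefh* rose within a low range, from 0.125, 0.155, 0.248 and 0.0899 CPM to 0.508, 1.67, 0.752 and 0.484 CPM, a call lost in 6 of 14 other settings (adjusted p up to 0.12). *Pvalb* also rose, to the SPONT values given above, from 0–0.135 CPM in NPC P15, where a library held at most 6 of its counts. *Chat* and *Slc6a5* were at or below 0.0643 CPM in every SPONT library and were not tested. The genes that fell were the calcium sensor of vesicle release *Syt1* (−1.56), *Gad1*, which makes GABA (−1.79), and the calcium buffer *Calb2* (−3.55). The call of *Gad1* was lost in 8 of 14 other settings (adjusted p up to 0.035). Progenitor cultures had more *Calb2*, 13.3, 18.7, 20.0 and 14.5 CPM, than SPONT, 1.11, 1.56, 1.16 and 1.37 CPM.

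CNTF, a cytokine that drives astrocyte differentiation, and IGF-1 were each set against SPONT, and both comparisons share the 4 SPONT libraries. With CNTF 8 of 32 genes tested were higher and 5 lower, where 19.9% of all genes passed, 10.8% higher and 9.15% lower. *Pvalb* showed the largest rise of the 32 (log2FC 3.32, SE 0.35, edgeR adjusted p = 4.5e-05), with the values given above. *Tubb3* was at 231, 220.3, 229.7 and 222 CPM in CNTF, above every SPONT library (log2FC 1.52, SE 0.08, edgeR adjusted p = 3.8e-07). *Stmn2* was at 2.65, 2.93, 3.60 and 2.97 CPM (log2FC 2.08, SE 0.32, edgeR adjusted p = 5.9e-04) and *Gap43* at 158, 153, 148 and 144 CPM against 53.1, 67.3, 48.3 and 48.8 CPM (log2FC 1.49, SE 0.11, edgeR adjusted p = 5.4e-06). *Dcx* went the other way, to 14.5, 16.7, 12.1 and 13.2 CPM (log2FC −1.29, SE 0.18, edgeR adjusted p = 2.7e-04), so the early genes did not change together. *Uchl1*, *Reln*, *Gad1* and *Slc17a7* also rose (1.02, 1.01, 1.08 and 1.29), and *Calb2* (−1.55), *Thy1* (−0.81), *Map2* (−0.69) and *Vamp2* (−0.27) fell. The calls of *Gad1* and *Slc17a7* were lost in 8 of 13 other settings (adjusted p up to 0.03) and in 8 of 13 other settings (adjusted p up to 0.027), and that of *Vamp2* in 6 of 13 other settings (adjusted p up to 0.044). The log2FC of *Elavl3* (0.17) and *Nefh* (−0.66) did not pass. Astrocyte markers summed to 26590.0–27906 CPM in CNTF and 12743–16534 CPM in SPONT, and oligodendrocyte progenitor markers to 3707–4033 CPM and 5711–6558 CPM, and their part in the result was not tested.

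With IGF-1 none of 33 genes tested was higher and 5 were lower, where 6.55% of all genes passed, 2.80% higher and 3.75% lower. At an unadjusted p below 0.05, 7 were higher and 9 lower, and DESeq2 called 2 higher and 8 lower. Over all genes DESeq2 called 3565, against 979 by edgeR. The share of all genes at an unadjusted p was not computed, here or below. *Dcx* was at 16.8, 16.1, 13.8 and 13.3 CPM (log2FC −1.18, SE 0.16, edgeR adjusted p = 0.0043), below every SPONT library. *Camk2a* (−1.24), *Rbfox3* (−0.54), *Syn1* (−0.51) and *Syn2* (−0.38) fell with it. The count rests on single libraries: it was 16 without SPONT replicate 2, and 0 without SPONT replicate 3 or 4 or without any 1 of the 4 IGF-1 libraries. Calls over all genes moved with it, from 979 to 5724 in the first of these fits and to at most 1 in the others. The other early genes and *Nefh* did not pass, with *Tubb3* (0.19), *Stmn2* (1.40), *Elavl3* (0.62) and *Nefh* (0.09). *Pvalb* in IGF-1 was at 10.3, 10.1, 11.8 and 9.93 CPM, above every SPONT library, and did not pass the test (log2FC 1.46, SE 0.34, edgeR adjusted p = 0.014). Oligodendrocyte markers summed to 3358–3871 CPM in IGF-1 and 1125–2565 CPM in SPONT, and their part in the result was not tested.

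In 20% FBS 3 of the 4 early genes were lower than in SPONT. Of 33 genes tested 16 were lower and 6 higher, where 55.5% of all genes passed, 27.9% lower and 27.6% higher. *Dcx* was at 11.3, 8.51, 9.59 and 6.26 CPM in 1% FBS, at 0.461, 1.71, 0.409 and 0.257 CPM in 5% FBS and at 0.114, 0.132, 0.217 and 0.127 CPM in 20% FBS (log2FC −7.93, SE 0.27, edgeR adjusted p = 1.3e-09 for 20% FBS against SPONT). *Elavl3* was at 23.9, 26.9, 27.3 and 21.7 CPM, 4.60, 11.9, 3.96 and 2.87 CPM and 0.926, 1.23, 0.993 and 0.467 CPM in the same groups (log2FC −5.76, SE 0.35, edgeR adjusted p = 1.1e-07). In both genes every 5% FBS library lay below every 1% FBS library. *Tubb3* was at 115, 98.7, 102 and 93.7 CPM in 1% FBS and 23.4, 17.3, 24.2 and 13.7 CPM in 20% FBS, and *Gap43* at 63.1, 57.0, 61.5 and 49.9 CPM and 7.94, 6.38, 8.63 and 4.91 CPM. Neither group of 4 overlapped the other for these genes, and *Tubb3* in 1% FBS lay above every SPONT library, without a test. Against SPONT, *Tubb3* (−2.06) and *Gap43* (−3.01) fell, together with *Cplx1* (−4.93), *Elavl4* (−4.65), *Grin1* (−4.41), *Calb2* (−3.25), *Pvalb* (−1.77), *Rbfox3* (−1.63), *Map2* (−1.18) and *Reln* (−0.96). *Cplx1* encodes the release regulator complexin, *Grin1* the obligate NMDA receptor subunit and *Elavl4* a neuronal RNA-binding protein. *Stmn2* was at 1.30, 1.15, 1.83 and 0.650 CPM and did not pass the test (log2FC 0.71, SE 0.40, edgeR adjusted p = 0.14), nor did *Nefh* (−0.88).

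A small set went up with serum. *Calb1* was at 0.104, 0.114, 0.132 and 0.0774 CPM in 1% FBS, 0.922, 0.138, 1.15 and 3.14 CPM in 5% FBS, 11.9, 4.80, 11.0 and 17.1 CPM in 10% FBS and 28.6, 35.4, 28.7 and 19.3 CPM in 20% FBS (log2FC 8.17, SE 0.35, edgeR adjusted p = 7.2e-09). Its 20% FBS libraries were above all those of lower serum. *Npy* was at 0.430, 0.579, 0.324 and 0.484 CPM in SPONT and 6.13, 6.30, 7.29 and 2.49 CPM in 20% FBS (log2FC 3.57, SE 0.34, edgeR adjusted p = 4.4e-06). The others that rose were *Camk2a* (2.20), *Slc17a7* (2.18), *Gad1* (1.68) and *Syn2* (0.88). *Syn2* and *Camk2a* did not follow the serum dose to its end. *Syn2* was at 145–179 CPM in 1% FBS, 379–429 CPM in 10% FBS and 321–331 CPM in 20% FBS, and *Camk2a* at 3.06–4.34 CPM, 38.9–64.7 CPM and 21.4–31.1 CPM. The 10% FBS libraries were above all those of 1% and of 20% FBS for both. Adding CNTF to 5% FBS left *Dcx* at 0.305, 0.631, 0.535 and 0.482 CPM and *Elavl3* at 6.92, 7.03, 6.71 and 6.37 CPM, within the range of 5% FBS alone, while *Tubb3* was at 142, 118, 127 and 125 CPM and *Pvalb* at 21.9, 19.2, 21.0 and 21.8 CPM, above every library of 5% FBS. *Nefh*, *Nefl*, *Nefm*, *Snap25* and *Vamp1* stayed between 0.272 and 3.10 CPM in all 32 libraries of differentiated cultures. In 20% FBS astrocyte markers summed to 5852–6493 CPM and fibroblast and pericyte markers to 454–546 CPM, against 12743–16534 CPM and 12.0–15.2 CPM in SPONT, and their part in the result was not tested.

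**Figure D3:**
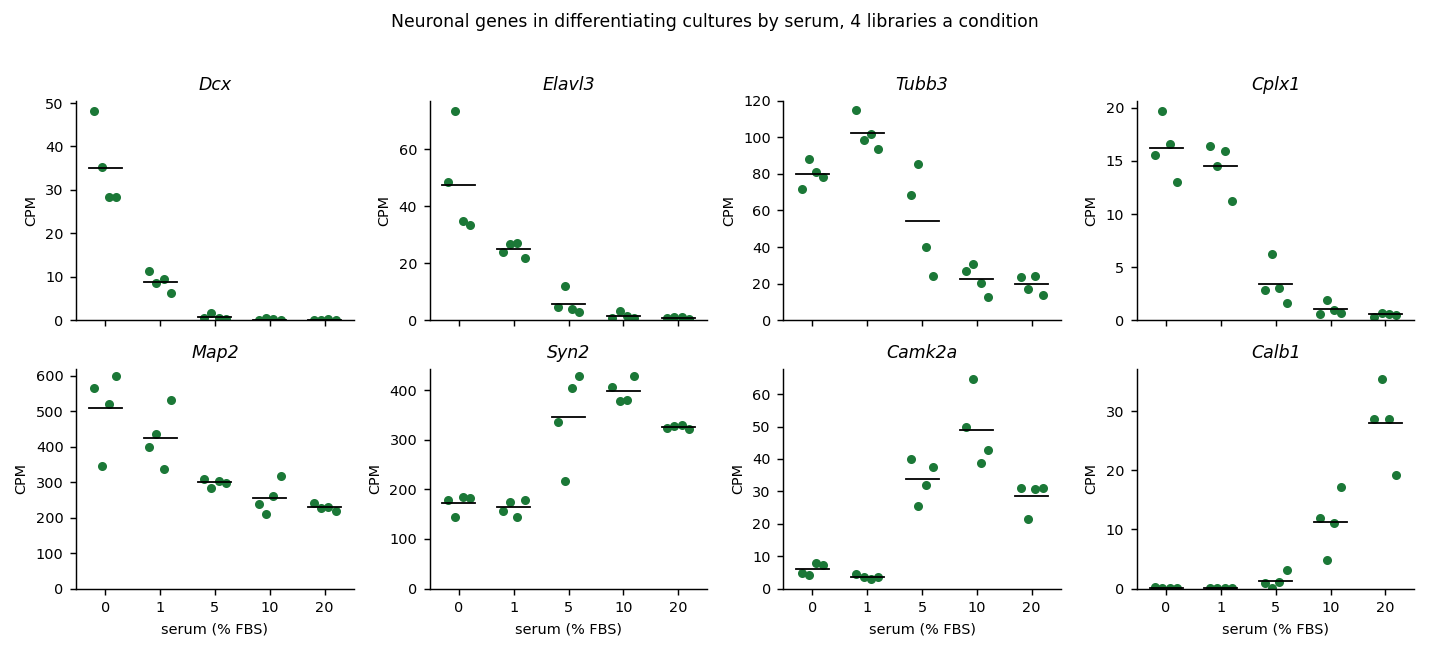
Level (CPM, linear axis) in each library (points) and group mean (line) of 8 genes at 0 (SPONT), 1, 5, 10 and 20% FBS, with 4 libraries each. *Dcx* and *Elavl3* lie lower in 5% FBS than in 1% FBS in every library, *Syn2* and *Camk2a* are highest in 10% FBS and *Calb1* in 20% FBS.

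Grafting exposes NPC to the cord for days to weeks, and grafts were compared with the NPC DCH from before transplantation, whose 5 libraries serve both comparisons below. In Graft uninjured 38 of 40 genes tested were higher and 1 lower, where 53.7% of all genes passed, 28.4% higher and 25.3% lower. In Graft SCI 14 d 33 of 38 were higher and 1 lower, where 51.6% of all genes passed, 28.4% higher and 23.3% lower. The median log2FC of the genes was 6.31 in Graft uninjured and 4.24 in Graft SCI 14 d, against 0.12 and 0.15 over all genes. At least the genes that NPC DCH held at the floor, 4 and 2 of those tested, passed the count filter only through the grafts. They could be called only higher, so part of both counts was fixed by the filter. Both medians are the same with these genes set to the fold against 3 counts per library, a step that moves a median only if a gene crosses it. With DESeq2 size factors the median over all genes tested in Graft uninjured moved from 0.12 to 0.24, and the members' calls kept their direction. *Snap25*, a membrane protein of the vesicle fusion complex, was at 1.19, 0.633, 0.238, 0.393 and 1.56 CPM before grafting. It was at 1289.8, 773, 758, 599.6 and 2915 CPM in Graft uninjured (log2FC 10.68, SE 0.75, edgeR adjusted p = 1.5e-07) and at 97.5, 147, 73.3, 294 and 185 CPM in Graft SCI 14 d (log2FC 8.02, SE 0.62, edgeR adjusted p = 1.8e-07). All grafts were above all NPC DCH libraries, and replicate 5 was the highest in Graft uninjured.

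*Nefl* and *Nefh* rose in Graft uninjured (10.17 and 10.88) and in Graft SCI 14 d (7.41 and 8.55). *Elavl3* went from 3.64, 5.25, 8.59, 4.06 and 8.13 CPM to 338, 463, 411, 525 and 476 CPM in Graft uninjured (log2FC 6.25, SE 0.29, edgeR adjusted p = 7.0e-09). For *Tubb3* the values were 75.3, 61.2, 63.4, 58.2 and 64.6 CPM in NPC DCH and 390.3, 284, 305, 192.97 and 705 CPM in Graft uninjured (log2FC 2.57, SE 0.30, edgeR adjusted p = 1.0e-05). Cholinergic *Chat*, which no NPC DCH library held above 3 counts, was at 10.5, 7.79, 10.1, 1.77 and 30.6 CPM in Graft uninjured and at 1.24, 0.204, 0, 1.16 and 0 CPM in Graft SCI 14 d. The glutamate transporter gene *Slc17a6* was likewise at the floor before grafting and at 67.8, 33.9, 26.0, 23.1 and 121 CPM in Graft uninjured. *Map2* was the only one of the 41 genes to fall in either comparison, from 609.6, 580.3, 638, 533 and 646 CPM to 344, 289, 361, 253 and 451 CPM in Graft uninjured (log2FC −0.80, SE 0.15, edgeR adjusted p = 4.1e-04) and 205, 174, 174, 172 and 139.9 CPM in Graft SCI 14 d (log2FC −1.47, SE 0.10, edgeR adjusted p = 4.5e-08). The syntaxin gene *Stx1a* did not pass the test in either.

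By role, all 4 genes of glutamate and all 4 of GABA and glycine transmission rose in Graft uninjured, and the spread within the group was wide. The call of *Slc17a7* was lost in 11 of 16 other settings (adjusted p up to 0.025). *Slc17a7*, the lesser of the glutamate transporter genes here, was at 5.53, 6.04, 5.31, 2.24 and 13.0 CPM in Graft uninjured and 0.388, 2.77, 0.593, 1.53 and 0 CPM in Graft SCI 14 d, against 0.0136, 0, 0, 0 and 0.702 CPM in NPC DCH. *Gad1* was at 78.5, 29.2, 28.6, 22.8 and 151 CPM and *Gad2* at 27.0, 16.0, 13.9, 11.7 and 74.2 CPM in Graft uninjured, both highest in replicate 5. The peptide gene *Sst* was at 43.4, 22.96, 23.5, 11.0 and 126 CPM in Graft uninjured and 3.40, 3.43, 3.51, 3.22 and 7.13 CPM in Graft SCI 14 d, and *Tac1*, which encodes substance P, at 9.35, 1.77, 2.02, 9.03 and 16.5 CPM and 0, 4.36, 0.775, 2.04 and 2.42 CPM. *Th* stayed low, at 0–3.37 CPM in Graft uninjured and 0–0.345 CPM in Graft SCI 14 d. Among the vesicle genes, *Syp*, a membrane protein of the vesicle, was at 163–926 CPM in Graft uninjured, 58.7–109 CPM in Graft SCI 14 d and 24.0–36.2 CPM in NPC DCH (3.75 and 1.83). *Stx1a* was at 5.53–18.6 CPM, 0.247–9.28 CPM and 4.97–11.6 CPM in the same groups, all overlapping.

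Markers of host cells also differed between grafts and cultured NPC. Myeloid markers summed to 1.52–2.59 CPM in NPC DCH, 199–1438 CPM in Graft uninjured and 522–1766 CPM in Graft SCI 14 d. Oligodendrocyte markers summed to 103–117 CPM, 12829–29166 CPM and 5026–12071 CPM in the same order. RNA of untagged host neurons carried through the pull-down and RNA of tagged cells cannot be told apart in these counts, and the part of these sources in the result was not tested. In bulk samples fewer cells of a type and less RNA per cell cannot be told apart either.

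Whether injury of the cord changed these genes in grafts was asked of the same 5 Graft uninjured libraries. In Graft SCI 14 d none of the 41 genes was higher and 12 were lower, where 4.64% of all genes passed, 2.09% higher and 2.55% lower. At an unadjusted p below 0.05, 1 was higher and 32 lower, and DESeq2 called none higher and 25 lower. Over all genes DESeq2 called 2034, against 734 by edgeR. The log2FC was negative for 38 of the 41, with a median of −2.04 against −0.05 over all genes, and 26 were lower in every injured library than in any uninjured one and none higher, where 12.5% of all genes were lower and 1.62% higher. *Snap25* fell (log2FC −2.71, SE 0.50, edgeR adjusted p = 0.0039) between the values given above, without overlap. *Grin1* was at 7.62, 11.6, 7.63, 14.0 and 15.9 CPM against 114, 70.5, 80.1, 63.2 and 226 CPM (log2FC −3.00, SE 0.41, edgeR adjusted p = 7.4e-04), also without overlap. *Slc32a1*, which loads GABA and glycine into vesicles, was at 1.14, 5.83, 4.65, 6.44 and 9.85 CPM against 71.5, 49.5, 25.8, 38.2 and 216 CPM (log2FC −3.55, SE 0.66, edgeR adjusted p = 0.004). The others that fell were *Sst* (−3.17), *Nefl* (−2.82), *Nefm* (−2.67), *Vamp1* (−2.52), *Nefh* (−2.38), *Rbfox3* (−2.31), *Cplx1* (−2.21), *Eno2* (−2.16) and *Elavl3* (−1.20).

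Of the early genes only *Elavl3* fell, from 338, 463, 411, 525 and 476 CPM to 157, 199.7, 175, 128 and 138 CPM (log2FC −1.20, SE 0.18, edgeR adjusted p = 0.0011). *Tubb3* was at 444, 327, 353, 284 and 129 CPM in Graft SCI 14 d, and the groups overlapped (log2FC −0.07, SE 0.33, edgeR adjusted p = 0.92). *Dcx* was at 13.7, 9.17, 6.72, 6.15 and 8.54 CPM against 19.6, 22.4, 15.1, 13.6 and 4.89 CPM (log2FC −0.50, SE 0.38, edgeR adjusted p = 0.44). *Stmn2* was lower in every injured library, 20.0, 41.5, 25.1, 42.7 and 37.8 CPM against 179, 119, 69.1, 72.9 and 419.7 CPM, and just missed the threshold (log2FC −2.10, SE 0.47, edgeR adjusted p = 0.011). *Gap43* was at 213, 184, 196, 238 and 119 CPM against 164, 143, 206, 121 and 132 CPM and *Pvalb* at 96.1, 96.3, 72.1, 94.4 and 21.3 CPM against 73.8, 85.0, 57.8, 31.0 and 76.2 CPM. The groups overlapped for both, and neither passed the test (0.58 and 0.45). The mature genes *Chat* (−4.35) and *Slc6a5* (−2.48) did not pass either.

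The number of calls in this comparison depended on single libraries. It was 5, 3, 3, 5 and 19 without Graft SCI 14 d replicates 1 to 5 in turn, and leaving out Graft uninjured libraries gave counts within that range. Over all genes, leaving out the same Graft SCI 14 d libraries gave 310, 303, 232, 372 and 1576 calls, against 734 with all libraries. Oligodendrocyte markers were higher in Graft uninjured and myeloid markers overlapped, in the ranges given above, and their part in the result was not tested.

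**Figure D4:**
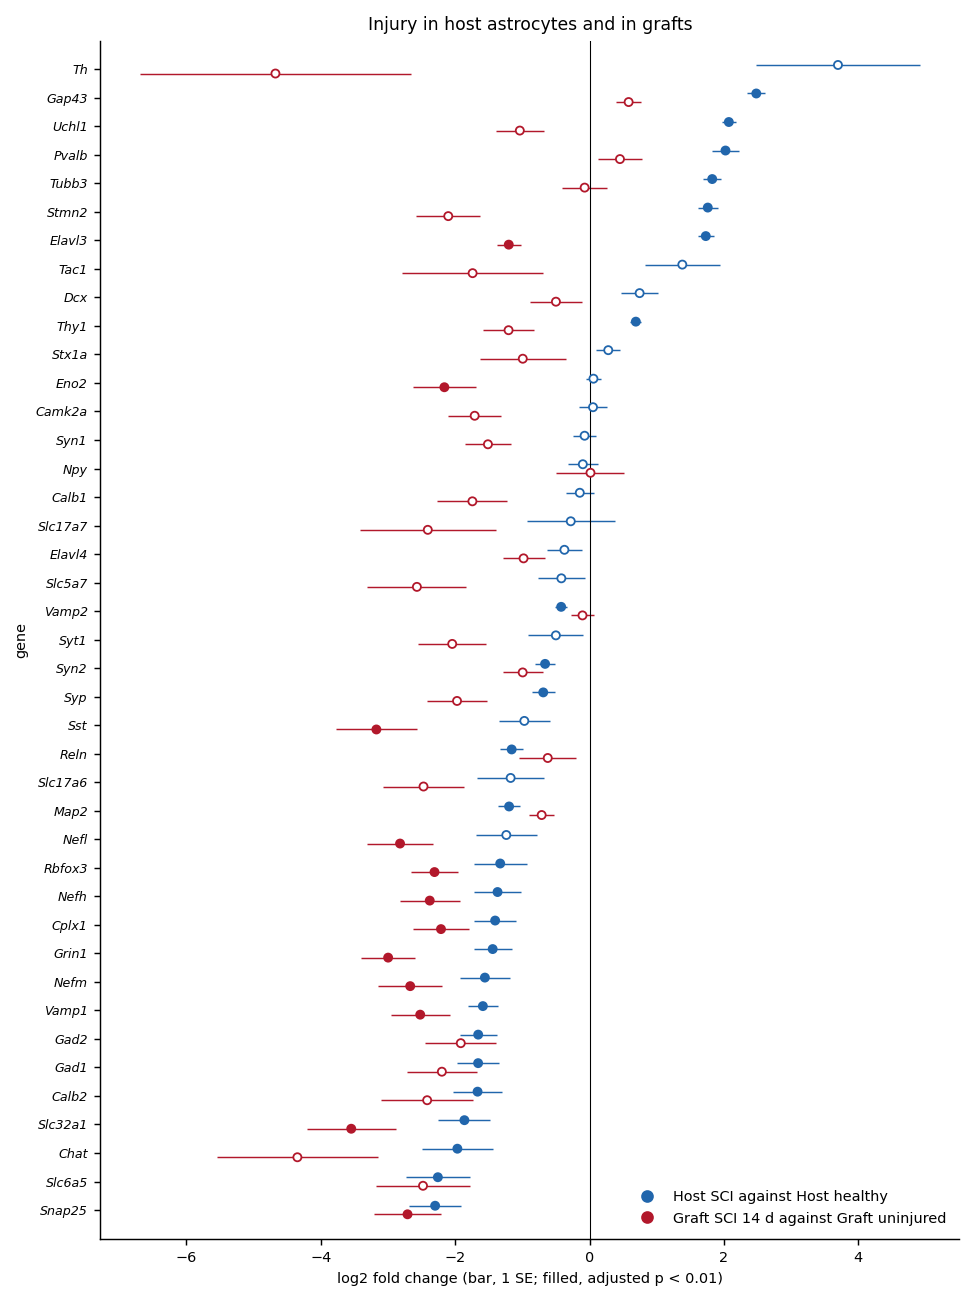
log2 fold change (bar, 1 SE) of each of the 41 genes for Graft SCI 14 d against Graft uninjured (red) and for Host SCI against Host healthy (blue), with filled points for genes past an adjusted p of 0.01. The graft points lie below 0 for 38 genes, and *Gap43*, *Uchl1*, *Pvalb*, *Tubb3*, *Stmn2*, *Elavl3* and *Thy1* are the filled host points above 0.

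In Graft dSCI against the same Graft uninjured libraries, 3 of the 41 genes were lower and none higher, where 4.19% of all genes passed, 1.64% lower and 2.55% higher. At an unadjusted p below 0.05, 30 were lower and none higher, and DESeq2 called 16, all lower. Over all genes DESeq2 called 1827, against 666 by edgeR. The 3 were *Map2* (−1.27), *Elavl3* (−1.27) and *Grin1* (−2.10). *Map2* was at 77.8, 144, 149, 104 and 114 CPM against 344, 289, 361, 253 and 451 CPM in Graft uninjured, without overlap. None of the other early and mature genes passed, with *Dcx* (−1.46), *Tubb3* (−1.02), *Stmn2* (−0.76), *Nefh* (−1.26), *Pvalb* (−1.38), *Chat* (−1.52) and *Slc6a5* (−2.23). Of the 41 genes, 17 were lower in every Graft dSCI library than in any of Graft uninjured and none higher, where 9.48% of all genes were lower and 2.17% higher. The median log2FC was −1.46 against −0.02 over all genes. The call count was 1 without Graft uninjured replicate 1 or 2 and 0 without Graft dSCI replicate 2 or 3, and stayed at 3 without Graft uninjured replicate 5. Over all genes these fits gave 355, 215, 197, 223 and 593 calls, against 666 with all libraries. Within Graft dSCI, replicate 4 was highest for 24 genes and replicate 1 lowest for 31. Fibroblast and pericyte markers summed to 6545–21866 CPM in Graft dSCI and 1642–3858 CPM in Graft uninjured. Myeloid markers summed to 999.8–10900.0 CPM in Graft dSCI, where replicate 4 was the highest, and to 199–1438 CPM in Graft uninjured. The part of either in the result was not tested.

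Time in the lesion was addressed by grafts in T10 crush recovered at 5 and 14 days. In Graft SCI 14 d 2 of 40 genes tested were higher than in Graft SCI 5 d and none lower, where 5.30% of all genes passed, 2.72% higher and 2.58% lower. At an unadjusted p below 0.05, 7 were higher and none lower, and DESeq2 called 6 higher. Over all genes DESeq2 called 1849, against 811 by edgeR. *Elavl4* was at 23.6, 24.2, 20.4, 19.5 and 9.18 CPM against 2.85, 2.54, 2.70, 9.94 and 3.04 CPM (log2FC 2.31, SE 0.44, edgeR adjusted p = 0.0047), with Graft SCI 14 d replicate 5 just below Graft SCI 5 d replicate 4. *Syn2* was at 73.4, 64.6, 62.9, 51.8 and 52.3 CPM against 29.0, 27.4, 33.9, 50.6 and 40.0 CPM (log2FC 0.91, SE 0.19, edgeR adjusted p = 0.0093), and the groups did not overlap. Of all 41, 2 genes were higher at 14 days without overlap and none lower, where 3.71% of all genes were higher and 8.60% lower. *Tubb3* was at 54.0, 62.8, 71.4, 275 and 123 CPM at 5 days (log2FC 1.50, SE 0.44, edgeR adjusted p = 0.044) and *Dcx* at 0, 2.21, 0, 2.18 and 2.19 CPM (log2FC 2.90, SE 0.92, edgeR adjusted p = 0.057). *Stmn2* (−0.35), *Elavl3* (0.66), *Nefh* (0.79), *Pvalb* (0.25), *Chat* (−1.02) and *Slc6a5* (1.45) did not pass the test.

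The count in this comparison moved with any 1 library left out, and most with Graft SCI 5 d replicate 4. Its *Snap25* level was 335 CPM, where the other 4 held 22.9–72.5 CPM. Without it 14 of the genes were called in place of 2, and 1191 of all genes in place of 811. The count was 1 without Graft SCI 14 d replicate 4 or 5, and 0 without any other single library. This library also held the highest myeloid sum of its group, 15243 CPM where the group median was 1054 CPM, and the part of host cells in its neuronal levels was not tested. The 5-day libraries are also single-read and shallower than the 14-day ones, so read type and time cannot be told apart.

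In host cells the same crush was set against healthy cord. In Host SCI 7 of the 41 genes were higher and 18 lower, where 41.1% of all genes passed, 22.2% higher and 18.8% lower. The higher genes were *Gap43* (2.48), *Uchl1* (2.07), *Pvalb* (2.02), *Tubb3* (1.83), *Stmn2* (1.76), *Elavl3* (1.73) and *Thy1* (0.69). For 3 of the 4 early genes the groups did not overlap. *Tubb3* was at 157, 190.4, 129, 191.55 and 127 CPM against 29.3 to 50.8 CPM with a median of 37.4 in Host healthy (log2FC 1.83, SE 0.13, edgeR adjusted p = 4.4e-09). *Stmn2* was at 106, 66.0, 72.5, 114 and 87.7 CPM against 19.3 to 32.1 CPM with a median of 21.2 (log2FC 1.76, SE 0.15, edgeR adjusted p = 3.1e-08). *Elavl3* was at 461, 426, 380.3, 279 and 392 CPM against 84.4 to 124 CPM with a median of 101 (log2FC 1.73, SE 0.12, edgeR adjusted p = 4.0e-09). The fourth, *Dcx*, was at 5.53, 5.67, 4.89, 5.92 and 2.00 CPM against 1.26 to 3.50 CPM with a median of 2.68 and overlapped (log2FC 0.75, SE 0.27, edgeR adjusted p = 0.028). *Gap43* was at 255, 227, 200.1, 153 and 187 CPM against 25.2 to 41.9 CPM with a median of 33.0 (log2FC 2.48, SE 0.13, edgeR adjusted p = 1.4e-10), again without overlap.

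Genes of release and inhibitory transmission were lower. *Snap25* was at 14.7, 7.63, 29.6, 76.6 and 35.8 CPM against 110.3 to 182 CPM with a median of 135 (log2FC −2.30, SE 0.39, edgeR adjusted p = 8.2e-05), all injured libraries lying below all healthy ones. All 4 GABA and glycine genes fell, *Slc6a5* (−2.26), *Slc32a1* (−1.86), *Gad1* (−1.66) and *Gad2* (−1.66), and 6 of 9 vesicle and release genes, *Snap25* (−2.30), *Vamp1* (−1.59), *Cplx1* (−1.40), *Syp* (−0.69), *Syn2* (−0.66) and *Vamp2* (−0.42). Mature *Nefh* was at 6.41, 10.5, 22.0, 54.2 and 27.8 CPM against 46.4 to 62.5 CPM with a median of 56.4 and *Chat* at 0.161, 0.280, 0.376, 0.250 and 0.114 CPM against 0.115 to 1.29 CPM with a median of 0.910. Both fell (−1.37 and −1.97), although the groups overlapped, for *Nefh* through Host SCI replicate 4 alone. *Calb2* (−1.67), *Nefm* (−1.56), *Grin1* (−1.44), *Rbfox3* (−1.33), *Map2* (−1.20) and *Reln* (−1.16) fell as well. The calls of *Chat* and *Rbfox3* were lost in 6 of 11 other settings (adjusted p up to 0.11) and in 6 of 11 other settings (adjusted p up to 0.22). Of the 41 genes, 7 were higher and 9 lower in every injured than in any healthy library, where 21.1% and 7.94% of all genes were. Replicate 4 was the highest Host SCI library for 30 genes and replicate 2 the lowest for 24.

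When only the 2 healthy libraries without Y-linked reads served as reference, 5 genes were higher and 2 lower in Host SCI, with no change of direction for any called gene. That fit called 3015 of all genes, against 6933 with all libraries. One fit over all host and graft groups called 6 higher and 5 lower, and 3908 of all genes. Myeloid markers summed to 291–2132 CPM in Host SCI and 18.9–38.8 CPM in Host healthy, and oligodendrocyte markers to 25052–41791 CPM and 6136–13105 CPM. Schwann cell markers summed to 2160–5119 CPM and 839–1815 CPM in the same order, without overlap. Their part in the result was not tested.

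**Figure D5:**
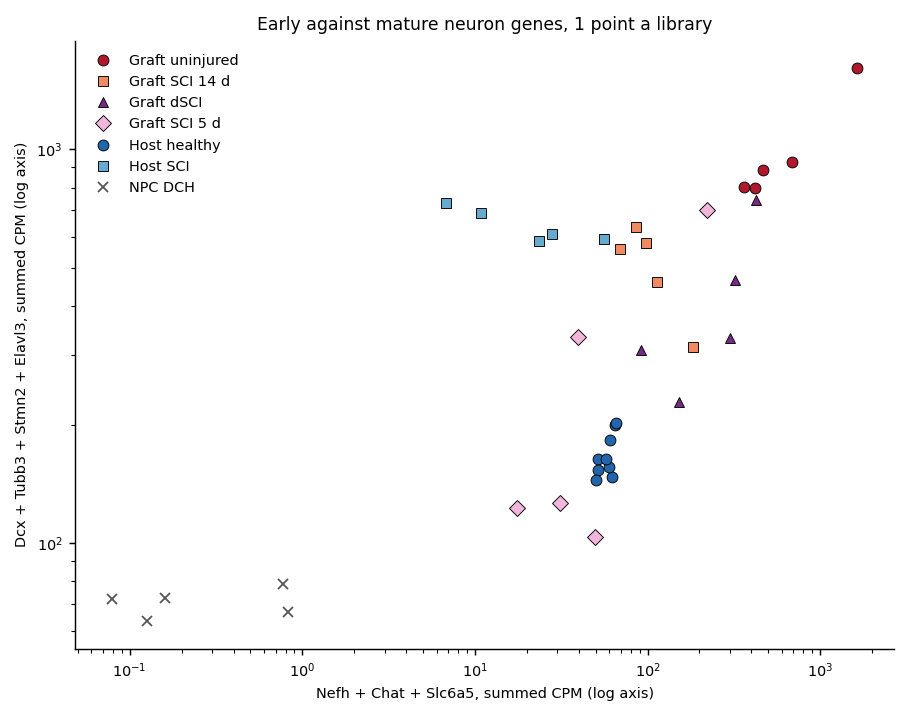
Summed CPM of *Nefh*, *Chat* and *Slc6a5* (x axis, log) against that of the early genes *Dcx*, *Tubb3*, *Stmn2* and *Elavl3* (y axis, log), with 1 point a library for the grafts, the hosts and NPC DCH. Host SCI lies at 586–730 CPM on the early axis with at most 55.8 CPM on the mature axis, while Graft uninjured lies at 800–1606 and 362–1640 CPM. Most of the value on the mature axis is *Nefh* in the host groups and in Graft uninjured.

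The effect of injury on the 41 genes differed between grafts and hosts in 10 of them, by a contrast of the 2 injury effects in 1 edgeR fit that was chosen after seeing the data, where 16.8% of all genes were called. All 10 were more negative in grafts and none more positive. The share of all genes in each direction was not computed, so this cannot be set against the other genes. They were *Elavl3* (difference of log2FC −2.97, SE 0.20, edgeR adjusted p = 1.7e-10), *Stmn2* (−3.91), *Uchl1* (−3.15), *Eno2* (−2.26), *Gap43* (−1.94), *Tubb3* (−1.94), *Thy1* (−1.93), *Camk2a* (−1.80), *Pvalb* (−1.61) and *Syn1* (−1.48). For *Snap25* the difference was −0.45 (SE 0.62), which did not pass the test. Without Graft uninjured replicate 5 the contrast called 8 genes, and with only the 2 healthy libraries without Y-linked reads it called 4 (*Stmn2*, *Gap43*, *Elavl3* and *Uchl1*), all more negative in grafts. Over all genes these 2 fits called 2976 and 912, against 2947 with all libraries. Schwann cell markers summed to 42.6–164 CPM in Graft SCI 14 d and 74.3–215 CPM in Graft uninjured, below both host groups, and their part in the result was not tested.

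Grafts in uninjured cord were finally set beside healthy host cells. In Graft uninjured 35 of the 41 genes were higher than in Host healthy and 2 lower, where 49.7% of all genes passed, 26.5% higher and 23.3% lower. All 4 early and all 4 mature genes rose, among them *Chat* (3.38), *Slc6a5* (3.23), *Nefh* (3.09), *Tubb3* (2.73), *Stmn2* (2.39), *Dcx* (2.04), *Elavl3* (1.55) and *Pvalb* (1.37). *Nefh* was at 635, 433, 395, 346 and 1531 CPM in Graft uninjured, and *Slc6a5* at 37.2, 25.7, 14.3, 14.4 and 77.7 CPM against 2.11 to 3.21 CPM with a median of 2.59 in Host healthy. All graft libraries were above all host libraries for both genes. Of the 41, 32 were higher without overlap and 1 lower, where 30.8% and 9.12% of all genes were. *Reln*, a secreted guide of neuronal migration, was lower, 68.2, 44.9, 44.2, 25.5 and 83.5 CPM against 202 to 272 CPM with a median of 232 (log2FC −2.65, SE 0.23, edgeR adjusted p = 3.1e-08). *Vamp2* was also called lower (−0.57), although its CPM overlapped, 282–386 CPM against 271–392 CPM. The TMM factors, by which the fit scales each library, had a median of 1.04 in Graft uninjured and 0.81 in Host healthy. Without Graft uninjured replicate 5, 33 genes were higher and 4 lower. With only the 2 healthy libraries without Y-linked reads, 9 genes were higher and 1 lower, and 2616 of all genes were called, against 8209 with all libraries. Astrocyte markers summed to 13738–20601 CPM in Graft uninjured and 44861–52358 CPM in Host healthy, and oligodendrocyte progenitor markers to 2139–6884 CPM and 1296–1882 CPM. Their part in the result was not tested.

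Per kilobase of exon, relatives within a family differed in level. In Graft uninjured the mean levels of the light, medium and heavy neurofilament genes *Nefl*, *Nefm* and *Nefh* were 267, 137 and 167 FPKM, against 26.8, 13.9 and 13.7 FPKM in Host healthy. Without Graft uninjured replicate 5 they were 166, 85.8 and 113 FPKM in Graft uninjured. The vesicle SNARE genes *Vamp1* and *Vamp2* were at 0.159 and 30.8 FPKM in SPONT and at 40.98 and 84.1 FPKM in Graft uninjured. *Vamp2* was thus present throughout, while *Vamp1* was low in culture. The exon lengths used for *Vamp1* (10167 bases) and *Nefm* (5782 bases) are longer than the genes themselves on mm10. *Vamp1* lies at chr6:125215581-125222306 and *Nefm* at chr14:68119545-68125004, so the FPKM of both may be too low beside their relatives. In CPM *Vamp1* had a mean of 417 in Graft uninjured, and *Vamp2* was at no more than 328 in any group. *Syn2* was above *Syn1* in SPONT (24.6 against 11.5 FPKM) and below it in Graft uninjured (20.5 against 88.2 FPKM). *Tubb3* was the highest of the 4 early genes per kilobase in SPONT, Graft uninjured and Host SCI, at 42.7, 201 and 85.1 FPKM. *Syn1* spans *Timp1* and overlaps *Araf*, *Syn2* spans *Timp4*, *Chat* overlaps *Slc18a3*, *Gad1* overlaps *Gad1os*, and *Nefh* overlaps *Ap1b1*. *Grin1* overlaps *Lrrc26* and *Grin1os*, *Slc32a1* overlaps *Gm14204*, *Nefm* overlaps *A230070E04Rik*, *Syt1* overlaps *Gm5136*, and *Gad2* overlaps *Mir3967*. Reads in such overlaps cannot be told apart in these counts.

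A wider list of 40 other neuronal genes, such as axonal, presynaptic, receptor and channel genes, was counted beside the 41, and the share of all genes tested that passed in the same direction is given after each count. In NPC P15 17 (32.2%) of 32 tested were higher and 8 (34.9%) lower than in ESC, and in SPONT 11 (29.8%) of 30 were higher and 7 (27.4%) lower than in NPC P15. With CNTF 2 (10.8%) of 32 were higher and 7 (9.15%) lower, with IGF-1 1 (2.80%) and 6 (3.75%) of 32, and with 20% FBS 8 (27.6%) and 15 (27.9%) of 33. Against NPC DCH 34 (28.4%) of 39 were higher and none lower in Graft uninjured, and 29 (28.4%) of 37 higher and 1 (23.3%) lower in Graft SCI 14 d. Injury went with 12 (2.55%) lower and none higher of 38 in Graft SCI 14 d, 4 (1.64%) lower and none higher of 39 in Graft dSCI, and 20 (18.8%) lower and 5 (22.2%) higher of 37 in Host SCI. At 14 against 5 days 3 (2.72%) of 37 were higher and 1 (2.58%) lower, and 31 (26.5%) of 39 were higher and 2 (23.3%) lower in Graft uninjured than in Host healthy. This list was counted with all libraries only. In the same comparisons, the count for the 41 genes ran from 0 to 16 with IGF-1, 3 to 19 in Graft SCI 14 d against Graft uninjured, 0 to 4 in Graft dSCI and 0 to 14 at 14 against 5 days when 1 library was left out. Over all genes the calls ran from 0 to 5724, 232 to 1576, 197 to 864 and 350 to 1191 in the same order.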

How the data were processed

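Ribosome-bound RNA (RiboTag) of 23 groups was measured. The authors cleaned reads with Trimmomatic, used HISAT2 and mm10 for alignment and featureCounts for counting, and the deposited values are raw read counts per gene, not normalised. Strand settings are not given in the sources used here. Libraries were grouped by their labels, and the 41 genes and all lists were chosen with earlier results of these data known. CPM is the count over the sum of all gene counts of a library, and FPKM divides it by the kilobases of all annotated exons of the gene (GENCODE M21). Group pairs were fitted over all genes with edgeR 4.0.16 (TMM scaling, filterByExpr with a minimum count of 10, quasi-likelihood test, Benjamini-Hochberg adjustment, threshold 0.01) in R 4.3.3, and checked on simulated counts. SE is the log2 fold change over the square root of the test statistic. DESeq2 1.42.0, DESeq2 size factors, no count filter, 1 fit over all groups and the replicate number as a block were the alternatives. Each library of the compared groups was also left out in turn, except those of Host healthy. The contrast of injury effects and the healthy hosts without Y-linked reads were chosen after seeing the data. Genes named in the text are the 41. Tables were handled in Python 3.11.15 with pandas 2.3.3.

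At these depths counting error is small beside the spread between libraries for genes with many counts, and matters near the floor. Replicates were kept as separate samples, since the closest of 209 within-group pairs differed by a chi-square of 2.44 per degree of freedom. Same-numbered libraries did not deviate together (correlation over 0.1 in at most 2 of 5 pairs of a comparison), so the numbers were not taken as pairs.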

Additional observations from a re-analysis of the deposited data

Results flagged for a closer look

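In Graft uninjured, replicate 5 stood apart from the other 4 libraries for 3 sums. The early genes *Dcx*, *Tubb3*, *Stmn2* and *Elavl3* summed to 1606 CPM in it and to 800.3–927 CPM in the others. *Nefh*, *Chat* and *Slc6a5* summed to 1639.5 CPM in it and to 362–683 CPM in the others. All 41 genes together summed to 19332 CPM in it and to 5011–8933 CPM in the others. In Graft SCI 5 d, replicate 4 stood apart for *Nefh*, *Chat* and *Slc6a5*, with 220.4 CPM where the others held 17.6–49.5 CPM, and for all 41 genes, with 4225 CPM against 1333–1892 CPM. Each of 39 group sums was tested for a library this far from the rest, and chance marks about 1 in 20 of them.

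The effect of injury on 10 genes differed between grafts and hosts, as a difference of log2 fold changes (Graft SCI 14 d against Graft uninjured, less Host SCI against Host healthy) in edgeR. Over all genes 16.8% were called, and their share in each direction was not computed. For the early genes *Tubb3*, *Stmn2* and *Elavl3* the difference was −1.94, −3.91 and −2.97. For *Gap43* it was −1.94 and for *Uchl1* −3.15. *Eno2* and *Thy1* gave −2.26 and −1.93, *Syn1* −1.48, *Camk2a* −1.80 and *Pvalb* −1.61.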

How the results depend on the processing

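Counts of genes called in place of the values in the text were as follows. DESeq2 called 10 with IGF-1 (5 by edgeR), 25 in Graft SCI 14 d against Graft uninjured (12), 16 in Graft dSCI (3) and 6 in Graft SCI 14 d against Graft SCI 5 d (2). Without a filter on low counts the last 3 were 19, 5 and 1. One fit over all groups gave 4 at 14 against 5 days and 11 in Host SCI. The healthy hosts without Y-linked reads gave 7 in Host SCI, 10 in Graft uninjured against Host healthy and 4 in the contrast of injury effects. Over all genes they gave 3015, 2616 and 912, against 6933, 8209 and 2947 with all libraries. The replicate numbers do not pair the samples. The replicate block gave 0 with IGF-1, 0 in Graft dSCI and 1 at 14 against 5 days, and elsewhere 19 in NPC P15, 15 in SPONT, 10 in CNTF, 22 in 20% FBS, 33 and 38 in Graft SCI 14 d and Graft uninjured against NPC DCH, 16 in Graft SCI 14 d against Graft uninjured, 24 in Host SCI and 32 in Graft uninjured against Host healthy. The block called 1, 35 and 269 of all genes with IGF-1, in Graft dSCI and at 14 against 5 days. The cause of these differences was not tested.

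Leaving out 1 library at a time gave 20–21 calls in NPC P15, 15–18 in SPONT, 9–18 in CNTF, 0–16 in IGF-1, 21–23 in 20% FBS, 33–36 and 37–39 in Graft SCI 14 d and Graft uninjured against NPC DCH, 3–19 in Graft SCI 14 d against Graft uninjured, 0–4 in Graft dSCI, 0–14 at 14 against 5 days, 22–28 in Host SCI and 36–37 in Graft uninjured against Host healthy. The contrast of injury effects called 8 without Graft uninjured replicate 5. Direction turned in genes that passed no test. *Nefh* with IGF-1 was −0.10 without SPONT replicate 1, −0.11 without SPONT replicate 4 and −0.02 without IGF-1 replicate 4, within a range of −0.11 to 0.67 over the libraries left out. *Tubb3* in Graft SCI 14 d against Graft uninjured was 0.076 with the replicate block, 0.09 without Graft SCI 14 d replicate 5 and 0.33 without Graft uninjured replicate 5, within −0.24 to 0.33. *Stmn2* at 14 against 5 days was 0.54 with the block and 1.18 without Graft SCI 5 d replicate 4, within −0.61 to 1.18. Of the values for single genes, 1934 of those without 1 library kept direction and call, 168 lost the call and 13 gained it, and 1327, 112 and 15 did under the other settings. Some further genes named in the text lost their call as follows. In Graft dSCI it was lost in 8 of 15, 6 of 15 and 5 of 15 settings for *Map2*, *Elavl3* and *Grin1*. At 14 against 5 days it was lost in 7 of 15 and 12 of 15 for *Elavl4* and *Syn2*. In Graft SCI 14 d against Graft uninjured it was lost in 5 of 15 and 7 of 15 for *Nefm* and *Eno2*. Other genes of that comparison lost it too, since the count of 12 fell to 5, 3, 3 and 5 without Graft SCI 14 d replicates 1 to 4.

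Depth limits genes near 3 counts, such as *Chat*, *Th* and *Tac1* in cultures, where no fold is given.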
